A study of Gallus gallus with 12 samples.

Results

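The feather follicle both responds to circulating hormones and converts them locally, and 9 genes of that equipment were looked up by symbol: the thyroid hormone receptors THRA and THRB, the deiodinases DIO2 and DIO3, the growth hormone receptor GHR, the insulin-like growth factor receptor IGF1R, the prolactin receptor PRLR, the glucocorticoid receptor NR3C1 and the oestrogen receptor ESR1. Of these 9 names, 8 had a row in the deposited table of 24353 genes, 13688 of which carry a symbol. No row carries the symbol DIO3, the deiodinase that inactivates thyroid hormone, and it is not described further. The rule that picks them uses names and no measured value.

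Thyroid hormone reaches its nuclear receptors mainly as triiodothyronine, which DIO2 makes inside the cell from thyroxine. Growth hormone and prolactin act through single-pass cytokine receptors and the kinase JAK2, while IGF1R is itself a tyrosine kinase that feeds the phosphoinositide 3-kinase and AKT pathway. In birds, thyroid hormone and prolactin are known for their part in moult and in the renewal of plumage, and glucocorticoids and oestrogen are known to affect feather growth and feather form.

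The follicles came from F3 hens of a cross between the Huiyang Bearded chicken and the White Leghorn chicken, with white or with yellow plumage, at 7 or 11 weeks of age, and each of the 4 groups held 3 libraries. Per the methods and their genotype list, all birds of all groups were CC at the recessive white locus and s/W at the Silver locus, and all carried the Dominant white allele, as II or Ii. The birds of 7W2, 7Y1, 7Y3, 1Y1 and 1Y3 were Ii and all others II, so Ii was more frequent in yellow groups. Colour and the number of Dominant white alleles therefore cannot be fully told apart. Newly emerged feathers were plucked from the nape, the lowest part of the follicle with its epithelium and pulp was kept, and total RNA was sequenced. Libraries are named by their labels, in which 7 or 1 stands for 7 or 11 weeks, W or Y for white or yellow and the last digit for the bird number within the colour. The sources do not settle whether a number marks the same bird at both ages, so libraries were treated as independent and p-values measure the spread between them.

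Values are FPKM, fragments scaled to the length of the gene and to the fragments mapped in the library, with no read counts, so the depth behind a single value is unknown. The libraries of the 2 ages differed as a whole. The median FPKM over all genes was 0.252 to 0.384 in the 6 libraries of 7 weeks and 0.591 to 0.682 in the 6 of 11 weeks. Between 9906 and 10666 genes reached an FPKM of 1 at 7 weeks and between 11349 and 11634 at 11 weeks. Genes with an FPKM of at least 500 took 64.3% to 71.7% of the FPKM sum at 7 weeks and 61.2% to 66.3% at 11 weeks. Differences below are log2 fold changes from limma on log2(FPKM + 0.1) with Benjamini-Hochberg adjustment over every gene whose mean FPKM reached 0.1. A gene is said to have risen or fallen only where the adjusted p did not exceed 0.05 and the log2 fold change was 1 or more in size. In whole follicles, fewer cells of a type and less RNA per cell cannot be told apart.

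Mean FPKM over the 12 libraries, a level per length, ordered the 8 genes. THRA stood at 28.0, DIO2 at 15.3, GHR at 6.08, IGF1R at 3.79, THRB at 2.96, NR3C1 at 1.59, PRLR at 0.230 and ESR1 at 0.226. PRLR and ESR1 were thus barely above the minimum for testing, and over the 6 libraries of 7 weeks ESR1 was below it.

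**Figure D1:**
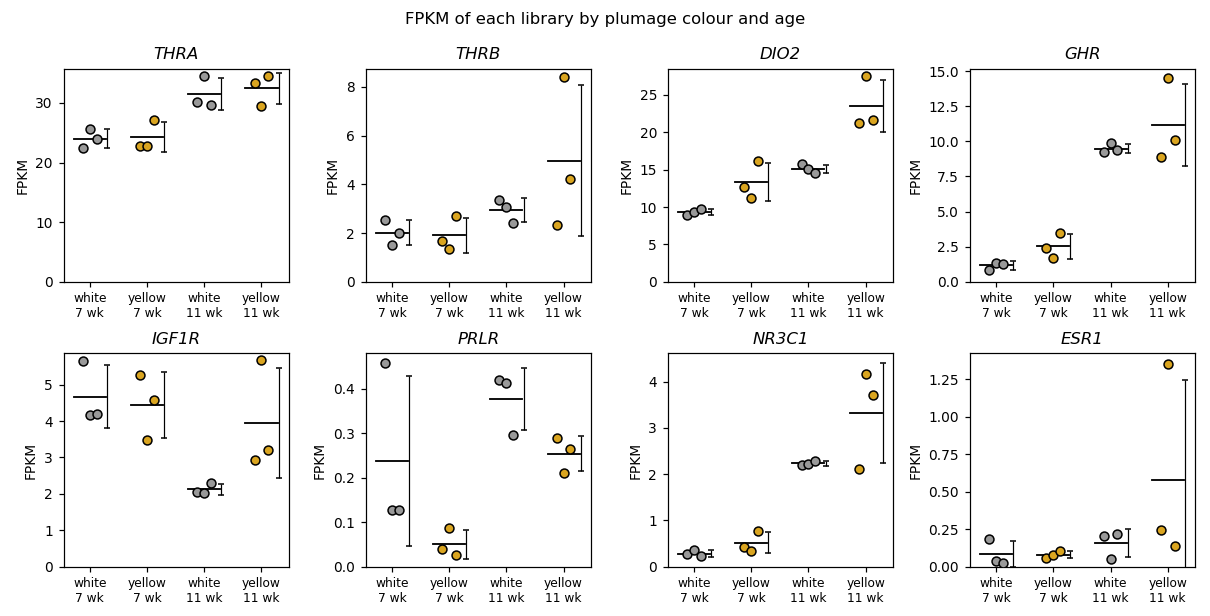
FPKM (linear axes from 0, a scale of its own for each gene) of 8 hormone receptor and deiodinase genes in the 12 libraries, by plumage colour and age; points are libraries, horizontal lines group means and vertical bars the SD of 3 libraries. GHR and NR3C1 lay higher in all 6 libraries of 11 weeks than in all 6 of 7 weeks, and 1Y3 was the highest point of its age in 6 of the 8 panels.

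More of these genes passed both thresholds for age than for colour. The same held over all genes, of which 4071 passed for the average age change and 30 for the average colour difference. Averaged over both colours, GHR and NR3C1 rose from 7 to 11 weeks and none of the 8 fell, while 28% of the 14553 genes tested passed both thresholds, 25% upwards and 2.96% downwards. The count of 2 of 8 was thus close to the share over all genes. On the adjusted p alone 7 of the 8 passed, 6 upwards and IGF1R downwards, beside 68.8% of all genes, so this count sat close to the background. With median-of-ratios scaling THRA, THRB and PRLR no longer passed the adjusted p, and with quantile normalization THRB and PRLR did not. In white follicles 3 of 8 passed both thresholds, with GHR and NR3C1 higher and IGF1R lower at 11 weeks, against 31.1% of 14449 genes, also near the background. In yellow follicles 3 of 8 passed, GHR, NR3C1 and PRLR, all higher, against 22.3% of 14534 genes. PRLR was below the minimum for testing in every yellow library of 7 weeks and entered only through those of 11 weeks. The ages did not overlap in 5 of the 8 genes in white and in 6 in yellow follicles, beside 70.6% and 59% of all genes, and in 4, THRA, DIO2, GHR and NR3C1, they were apart in the same direction in both colours, beside 53.6%. Of the 6 in yellow, PRLR and ESR1 had means of 0.0510 and 0.0814 FPKM at 7 weeks, under the minimum for testing. Both entered that comparison only through the libraries of 11 weeks.

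None of the genes passed both thresholds between yellow and white follicles. That held for the 7 tested at 7 weeks (0.0288% of 13895 genes passed), for the 8 tested at 11 weeks (0% of 14806 genes, with 1070 at an unadjusted p under 0.05) and for the average of both ages (0.206% of 14553 genes). In the average, DIO2 passed the adjusted p alone, as 0.412% of all genes did. At an unadjusted p under 0.05, limma listed 2 of the genes at 7 weeks (15% of all genes), 2 for the older birds (7.23%) and 4 in the average (17.3%). The colours did not overlap in 3 of the 8 genes at 7 weeks, DIO2, GHR and PRLR, beside 20.1% of all genes, and in 3 of 8 at 11 weeks, DIO2, IGF1R and PRLR, beside 13.7%. Only DIO2 and PRLR kept apart in the same direction at both ages, as 3.26% of genes did. PRLR passed the filter at 7 weeks only through a high white library, 7W1.

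**Figure D2:**
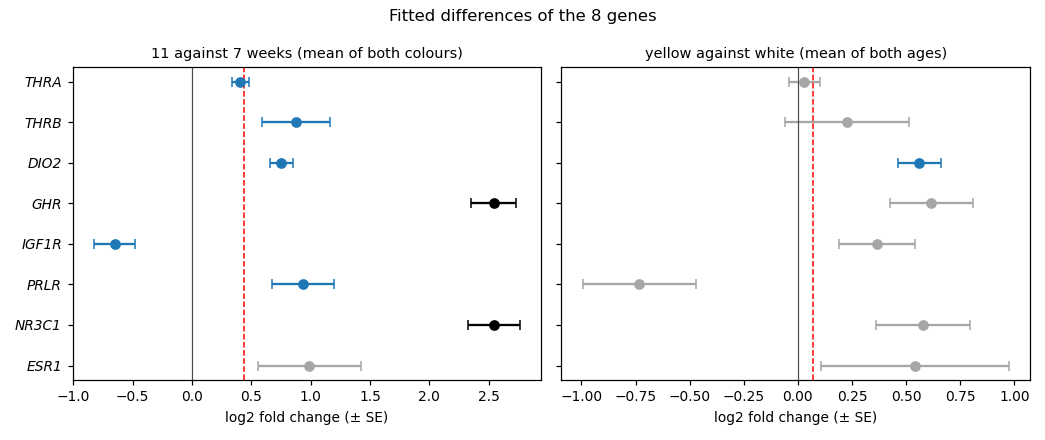
Fitted log2 fold changes with their standard errors, for 11 against 7 weeks averaged over both colours (left) and for yellow against white averaged over both ages (right); black points passed both thresholds, blue points the adjusted p alone and grey points neither, and the red dashed line is the median of all 14553 genes, at 0.44 for age and 0.07 for colour. GHR and NR3C1 stood apart at 2.54 and 2.55, IGF1R was the only gene below 0 for age and PRLR the only one below 0 for colour.

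THRA encodes the thyroid hormone receptor alpha and lies on chromosome 27 of GRCg6a, from 7106163 to 7164078 (ENSGALG00000040017). White follicles at 7 weeks gave FPKM of 22.4, 25.6 and 23.9 and yellow follicles gave 22.8, 22.8 and 27.1. At 11 weeks the values were 30.2, 34.5 and 29.7 in white and 33.4, 29.5 and 34.5 in yellow follicles. All libraries of 11 weeks lay above all of 7 weeks, and the colours overlapped at both ages. The average age change of THRA was 0.41 (SE 0.07, limma adjusted p = 0.000381), close to the 0.44 that was the median of all genes, and with median-of-ratios scaling it was -0.04 (limma adjusted p = 0.540). Its average colour difference was 0.03 (SE 0.07, limma adjusted p = 0.849). The interval listed for THRA also covers the rows of 5 other genes, among them PSMD3, a proteasome subunit listed at 112 to 119 at 7 weeks and 68.6 to 79.3 at 11 weeks, and MED24, a Mediator subunit listed at 13.5 to 18.1 in all libraries. ORMDL3, a regulator of sphingolipid synthesis in the same interval, was listed at 3.20 to 6.84 at 7 weeks and 12.2 to 14.6 at 11 weeks, GSDMA, a gasdermin, at 0.802 to 2.14 in all libraries, and CSF3, a cytokine, at 0. Reads in shared stretches cannot be told apart without strand, so the level of THRA is uncertain to that extent.

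THRB, the thyroid hormone receptor beta, lies on chromosome 2 from 37209655 to 37257267 (ENSGALG00000011294). Its FPKM were 2.53, 1.52 and 2.00 in white and 1.69, 1.33 and 2.71 in yellow follicles at 7 weeks. At 11 weeks they were 3.37, 3.07 and 2.41 in white and 2.33, 8.39 and 4.21 in yellow follicles. Every neighbouring pair of groups overlapped, and 1Y3, at 8.39, stood far above the other libraries. The average age change was 0.87 (SE 0.29, limma adjusted p = 0.0180), below the fold threshold, and the average colour difference was 0.23 (SE 0.29, limma adjusted p = 0.686). With median-of-ratios scaling the age change was 0.44 (limma adjusted p = 0.188), and with quantile normalization 0.05 (limma adjusted p = 0.878). Within a library THRA was listed at 3.52 to 17.2 times THRB, with a median of 11.6 over the 12 libraries, and the lowest ratio was that of 1Y3.

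DIO2 is the enzyme that activates thyroxine, and it lies on chromosome 5 from 40752234 to 40769122 (ENSGALG00000026005). At 7 weeks its FPKM were 8.99, 9.33 and 9.68 in white and 12.7, 11.2 and 16.2 in yellow follicles. At 11 weeks they were 15.7, 15.1 and 14.6 in white and 21.3, 27.6 and 21.7 in yellow follicles. Yellow lay above white without overlap at each age, and 11 weeks lay above 7 weeks without overlap in each colour. The order of the groups was yellow at 11 weeks (23.5 ± 3.55, SD, n = 3), white at 11 weeks (15.1 ± 0.527), yellow at 7 weeks (13.4 ± 2.59) and white at 7 weeks (9.33 ± 0.346), of which the 2 in the middle overlapped. Being higher in yellow without overlap at both ages was shared by 2.03% of the 13752 genes tested at both ages.

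Yellow follicles held a mean FPKM of DIO2 1.43 times that of white follicles at 7 weeks and 1.56 times at 11 weeks. The fitted differences were 0.50 (SE 0.15, limma adjusted p = 0.306) and 0.62 (SE 0.12, limma adjusted p = 0.395). Neither age alone passed the test. The average over both ages was 0.56 (SE 0.10, limma adjusted p = 0.0378), with 6 of 6 yellow libraries above the white libraries of their age. That adjusted p stayed at or under 0.05 in 7 of 11 other settings and in 1 of 12 fits without 1 library, over which it ran from 0.0207 to 0.105. The fitted difference itself ran only from 0.49 to 0.62 over those 12 fits. For age, DIO2 differed by 0.75 on average (SE 0.10, limma adjusted p = 4.01e-05), below the fold threshold, and by 0.30 with median-of-ratios scaling.

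Of 10 names listed for the transport and handling of thyroid hormone, 7 rows were tested, and 3 rose with age and none fell, beside 25% and 2.96% of all genes, with a median change of 0.94 beside 0.44 for all genes. Among those that rose, SECISBP2, which is needed to build selenocysteine into the deiodinases, rose by 2.13, and TXNRD1, a thioredoxin reductase, by 2.54. SECISBP2 was listed at 0.228 to 0.855 FPKM at 7 weeks and at 2.14 to 3.43 at 11 weeks, without overlap. DIO1, the other activating deiodinase, was listed at 0 to 0.287 and was not tested. Of 15 rows of receptor partners and targets, 6 rose with age and none fell, beside 25% and 2.96% of all genes, with a median of 0.70 beside 0.44. Among these were the coactivators EP300 (1.74), NCOA3 (1.74), NCOA2 (1.57) and NCOA1 (1.42) and RXRA (1.41), the usual dimer partner of the thyroid hormone receptors. With median-of-ratios scaling the counts were 2 up of 7 for the handling list and 3 up and 1 down of 15 for the partners. Over all 14553 genes that scaling gave 2283 up and 1526 down. In both lists none passed for colour.

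GHR, the growth hormone receptor, lies on chromosome Z from 13428368 to 13558411 (ENSGALG00000014855). White follicles listed 0.812, 1.37 and 1.30 at 7 weeks and 9.22, 9.85 and 9.37 at 11 weeks. Yellow follicles listed 2.40, 1.69 and 3.47 at 7 weeks and 8.91, 14.5 and 10.1 at 11 weeks. The lowest library of 11 weeks was well above the highest of 7 weeks, and the white libraries of 11 weeks lay close together. The mean was 8.17 times higher at 11 than at 7 weeks in white and 4.43 times higher in yellow follicles. GHR rose by 2.96 in white (SE 0.20, limma adjusted p = 8.72e-05), by 2.13 in yellow (SE 0.30, limma adjusted p = 0.00421) and by 2.54 on average (SE 0.19, limma adjusted p = 1.49e-06). It rose by 1.88 to 2.60 under the 3 other scalings, which places it above the shift shared by most genes.

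The 2 age changes of GHR differed by -0.83 (SE 0.38), yellow less than white, with an unadjusted p of 0.0543 and a limma adjusted p of 0.738, so no difference between the colours in the age change was established. At 7 weeks the yellow libraries were all above the white ones, as for 12.1% of genes at that age, and the difference of 1.03 (SE 0.32) had a limma adjusted p of 0.311. At 11 weeks the colours overlapped, the difference was 0.20 (SE 0.19, limma adjusted p = 0.830), and without 1Y3 it was -0.0012.

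PRLR, the prolactin receptor, also lies on chromosome Z, from 10610211 to 10705011 (ENSGALG00000003446), and was listed near the lower limit. At 7 weeks white follicles listed 0.458, 0.127 and 0.127 FPKM and yellow follicles 0.0392, 0.0879 and 0.0259. At 11 weeks the values were 0.421, 0.414 and 0.296 in white and 0.289, 0.211 and 0.264 in yellow follicles. White lay above yellow without overlap at both ages, a pattern shared by 1.23% of the 13752 genes tested at both, although at 7 weeks a single library, 7W1, was 3.59 times as high as the next. PRLR passed the filter at 7 weeks only through 7W1. Without that library its mean was under 0.1 FPKM and it was not tested, so its place among the 1.23% rests on 7W1. The differences were -1.04 at 7 weeks (SE 0.45, limma adjusted p = 0.332), -0.42 at 11 weeks (SE 0.29, limma adjusted p = 0.802) and -0.73 on average (SE 0.26, limma adjusted p = 0.218), none of which passed.

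In yellow follicles PRLR rose by 1.25 with age (SE 0.35, limma adjusted p = 0.0261), a change of 0.63 in white follicles did not pass (SE 0.40, limma adjusted p = 0.212), and the difference of the 2 changes was 0.62 (SE 0.52, limma adjusted p = 0.833). All yellow libraries of 7 weeks lay below the minimum of 0.1 FPKM, at 0.0259 to 0.0879. PRLR thus entered the yellow fit only through the libraries of 11 weeks, and its rise there starts from values under the pseudocount. The rise in yellow follicles was lost without 7Y1, 7Y4, 1Y1 or 1Y4, at 1.20, 1.13, 1.18 and 1.22 with limma adjusted p of 0.0673 to 0.0869, and at 0.26 with a pseudocount of 1. It was also lost with median-of-ratios scaling (1.02, limma adjusted p = 0.0607) and quantile normalization (0.54, limma adjusted p = 0.312). The average age change of PRLR was 0.94 (SE 0.26, limma adjusted p = 0.00745) and 1.15 without 7W1. It was 0.64 with median-of-ratios scaling (limma adjusted p = 0.0579) and 0.21 with quantile normalization (limma adjusted p = 0.568). In chickens the sex-linked late feathering allele carries a partial duplication that spans parts of PRLR and SPEF2, and whether these birds carried it was not given in the sources used here. SPEF2, the neighbour of PRLR and a gene of sperm flagella, was listed at 0 in 7W2 and 7Y3 and at no more than 0.0315 elsewhere.

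Among 11 tested rows of growth hormone and prolactin signalling, 4 rose with age and none fell, beside 25% and 2.96% of all genes, with a median change of 0.91 beside 0.44. PTPN1, a phosphatase that acts on JAK2 and on the insulin receptor, rose by 3.16, and JAK2, the kinase bound to both receptors, rose by 1.94. JAK2 went from 0.182 to 0.395 FPKM over the libraries of 7 weeks to 0.972 to 3.48 over those of 11 weeks, with 1Y3 the highest. CISH, a feedback inhibitor, rose by 1.01, just past the threshold, and GH, growth hormone itself, by 1.31 from a level between 0 and 0.107 FPKM at 7 weeks. GH reached no more than 0.469 FPKM in any library and passed the filter only through those of 11 weeks. Its place among the 4 therefore carries little weight. SOCS2, the feedback inhibitor known to limit growth hormone signalling, changed by 0.21 (SE 0.14, limma adjusted p = 0.197), which did not pass. SOCS1, of the same list, changed by -0.999 (SE 0.157, limma adjusted p = 0.000165), just short of the fold threshold. With median-of-ratios scaling 3 of the 11 rose and 1 fell, SOCS1 at -1.44, and CISH no longer passed. That scaling gave 2283 up and 1526 down over all 14553 genes.

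IGF1R, the receptor through which insulin-like growth factors act, lies on chromosome 10 from 17124104 to 17264663 (ENSGALG00000040651). At 7 weeks its FPKM were 5.66, 4.16 and 4.18 in white and 5.26, 3.48 and 4.57 in yellow follicles. At 11 weeks they were 2.05, 2.02 and 2.29 in white and 2.93, 5.67 and 3.20 in yellow follicles. The 3 white libraries of 11 weeks were the lowest of all 12, and the other 3 groups overlapped one another. IGF1R was thus the only one of the 8 genes with a lower mean at 11 weeks in both colours, at 0.454 of the mean at 7 weeks in white and 0.887 in yellow follicles.

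In white follicles IGF1R fell with age by 1.09 on the log2 scale (SE 0.15, limma adjusted p = 0.000859), whereas 4.49% of genes fell in that comparison. The fold threshold was no longer reached without 7W1 (-0.95), with a pseudocount of 1 (-0.85) or with equal totals (-0.995), all with an adjusted p under 0.05. The change in yellow follicles was -0.21 (SE 0.30, limma adjusted p = 0.591). The 2 age changes differed by 0.88 (SE 0.35), with an unadjusted p of 0.0290 and a limma adjusted p of 0.738, beside 0% of all genes that passed and 6.69% at an unadjusted p under 0.05. At 11 weeks yellow lay above white without overlap, as for 7.99% of genes, by 0.80 (SE 0.27, limma adjusted p = 0.618), and by 0.51 without 1Y3. The average age change was -0.65 (SE 0.18, limma adjusted p = 0.00615), and with median-of-ratios scaling and quantile normalization it was -1.09 and -1.40 and passed both thresholds.

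The ratio of 2 genes within a library does not change when a common factor scales all its values. Quantile normalization can change such a ratio, and the ratio does not remove shifts that vary with gene length or level. GHR stood at 0.143 to 0.760 of IGF1R at 7 weeks and at 2.56 to 4.89 times IGF1R at 11 weeks, so the order of the 2 receptors, per length, turned over in both colours. IGF1R was listed at 2.32 to 5.28 times INSR, the insulin receptor, at 7 weeks, and INSR rose by 1.27 with age. At 11 weeks that ratio was 0.622 to 0.822 in white and 0.991 to 1.05 in yellow follicles.

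**Figure D3:**
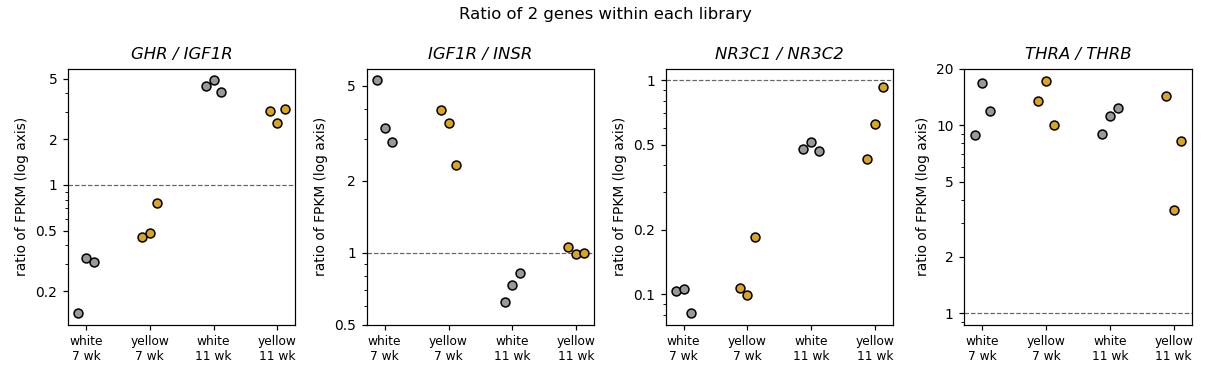
Ratio of the FPKM of 2 genes within each library (log axes), by plumage colour and age; points are libraries and the dashed line marks equal FPKM per length. GHR over IGF1R ran from 0.143 to 0.760 at 7 weeks and from 2.56 to 4.89 at 11 weeks, NR3C1 over NR3C2 stayed below 1 at both ages, and THRA over THRB overlapped between all groups.

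Of 23 tested rows of insulin-like growth factor and insulin signalling, 9 rose with age and 2 fell, beside 25% and 2.96% of all genes, with a median of 0.72 beside 0.44. Among those that rose were the adaptor GRB10 (1.91), the kinase AKT1 (1.68) and the phosphoinositide 3-kinase subunits PIK3R1 (1.54) and PIK3CA (1.46). Those that fell were IGFBP5, a binding protein of insulin-like growth factors, by 2.09 on the log2 scale, and IGF2BP1, an mRNA-binding protein of growing tissue, by 1.93. IGFBP5 was listed at 160 to 293 FPKM in the libraries of 7 weeks and 29.0 to 59.9 in those of 11 weeks, without overlap. With median-of-ratios scaling 5 of the 23 rose and 4 fell, and with quantile normalization 1 rose and 2 fell. Over all 14553 genes, 2283 rose and 1526 fell with the former, and 1543 rose and 1283 fell with the latter.

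NR3C1, the glucocorticoid receptor, lies on chromosome 13 from 18099573 to 18198040 (ENSGALG00000032992). At 7 weeks its FPKM were 0.267, 0.361 and 0.221 in white and 0.434, 0.350 and 0.782 in yellow follicles. At 11 weeks they were 2.19, 2.22 and 2.29 in white and 2.11, 4.16 and 3.70 in yellow follicles. All 6 libraries of 11 weeks lay above all 6 of 7 weeks, by 7.89 times in the means of white and 6.37 times in those of yellow follicles, and the colours overlapped at both ages. NR3C1 rose by 2.62 in white (SE 0.19, limma adjusted p = 9.56e-05), by 2.47 in yellow (SE 0.39, limma adjusted p = 0.00507) and by 2.55 on average (SE 0.22, limma adjusted p = 3.00e-06). It rose by 1.64 to 2.60 under the 3 other scalings. The average colour difference was 0.58 (SE 0.22, limma adjusted p = 0.236), and the age changes of the colours differed by -0.15 (SE 0.44, limma adjusted p = 0.956).

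NR3C2, the mineralocorticoid receptor that also binds glucocorticoids, was the more abundant of the pair. NR3C1 stood at 0.0820 to 0.186 of NR3C2 at 7 weeks and at 0.430 to 0.933 at 11 weeks, so the ratio shifted without overlap between the ages but did not reach 1. Of 15 tested rows of glucocorticoid receptor partners and targets, 2 rose with age and 1 fell, beside 25% and 2.96% of all genes, with a median of 0.24, below the 0.44 of all genes. PER2 (1.42) and PER3 (1.14), both of them also clock genes, rose, and CEBPD, a transcription factor, fell by 1.14 on the log2 scale. With median-of-ratios scaling none of the 15 passed upwards and 4 fell, beside 2283 up and 1526 down of all 14553 genes. PER2, at 0.99 (limma adjusted p = 0.000396), and PER3, at 0.72 (limma adjusted p = 0.000335), then missed the fold threshold alone, and with quantile normalization they were at 0.59 and 0.16.

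ESR1, the oestrogen receptor alpha, lies on chromosome 3 from 49053964 to 49241576 (ENSGALG00000012973) and was the least abundant of the 8. At 7 weeks its FPKM were 0.182, 0.0400 and 0.0259 in white and 0.0604, 0.0774 and 0.106 in yellow follicles. At 11 weeks they were 0.208, 0.0519 and 0.220 in white and 0.242, 1.35 and 0.140 in yellow follicles. All neighbouring groups overlapped, and the value of 1Y3 was 5.59 times that of the next library of its age. In yellow follicles the libraries of 11 weeks were all above those of 7 weeks, as for 44.7% of genes. The yellow mean at 7 weeks was 0.0814, so ESR1 passed the filter there only through the libraries of 11 weeks. The average age change was 0.99 (SE 0.43, limma adjusted p = 0.0623) and the average colour difference 0.54 (SE 0.43, limma adjusted p = 0.507), neither of which passed. Without 1Y3 the difference between the colours at 11 weeks went from 1.00 to 0.22.

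Of 18 tested rows of other steroid receptors and steroid enzymes, 7 rose with age and none fell, beside 25% and 2.96% of all genes, with a median of 0.54 beside 0.44. SRD5A1, a steroid 5-alpha-reductase, rose by 2.71, the orphan receptors ESRRG and ESRRB by 2.55 and 1.53, and STAR, the carrier of cholesterol into mitochondria, by 1.41. ESRRB was listed at 0 to 0.122 FPKM at 7 weeks and 0.185 to 0.772 at 11 weeks. It passed the filter only through the libraries of 11 weeks. SRD5A1 was listed at 0.714 to 8.81 FPKM at 7 weeks and at 12.7 to 37.5 at 11 weeks, without overlap. ESR2, the other oestrogen receptor, was listed at no more than 0.0699 in any library and was not tested. With median-of-ratios scaling 5 of the 18 rose and 1 fell, and with quantile normalization 2 rose and 2 fell. Over all 14553 genes, median-of-ratios scaling gave 2283 up and 1526 down, and quantile normalization 1543 up and 1283 down. The rescaled counts of the next 2 lists stand beside the same numbers. Of 16 tested rows of other nuclear receptors 6 rose, led by NR4A3 (1.85), RORA (1.39), PPARG (1.25) and NR1D2 (1.20), beside the same 25% of all genes. With median-of-ratios scaling 2 of the 16 rose, and with quantile normalization none rose and 2 fell. Of 8 tested rows of other hormone receptors 5 rose, beside 25% of all genes. They were led by the adiponectin receptor ADIPOR2 (1.57), the leptin receptor LEPR (1.42), INSR (1.27) and EGFR (1.06). The melanocortin receptor MC5R also rose, by 1.05. It was listed at 0 to 0.191 FPKM at 7 weeks and 0.0865 to 0.663 at 11 weeks. MC5R passed the filter only through the libraries of 11 weeks, so its place among the 5 carries little weight. With median-of-ratios scaling 2 of these 8 rose, with INSR at 0.84 and EGFR at 0.62 below the fold threshold, and with quantile normalization 1 rose and 1 fell. None of the genes in these lists passed for colour.

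Much of the age change was shared by most genes and moved with the length of the gene on the genome. The median change of all genes was 0.44 on the deposited values, 0.03 with median-of-ratios scaling and -0.05 with quantile normalization. With median-of-ratios scaling 2283 genes rose and 1526 fell with age, against 3640 and 431 on the deposited values, and of the 8 genes GHR (2.11) and NR3C1 (2.15) rose and IGF1R fell by 1.09. Across 14553 genes the rank correlation of the age change with the genomic span was 0.484, and with the mean FPKM it was -0.361, as a description over genes, which are not replicates. The median change was -0.02 for genes under 10 kb, 0.57 from 10 to 30 kb, 0.83 from 30 to 50 kb, 0.98 from 50 to 100 kb and 1.05 over 100 kb.

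All 8 genes are longer than 10 kb. Among genes of the same span class, GHR had a higher change than 97.4% and NR3C1 than 96.7%, while IGF1R had a higher change than only 0.651%. The remaining 5 were inside the bulk of their class, with DIO2 above 61.3% of it, THRB above 53.3%, PRLR above 47.8%, ESR1 above 47.0% and THRA above 18.7%. The part of gene length in these changes was not tested.

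**Figure D4:**
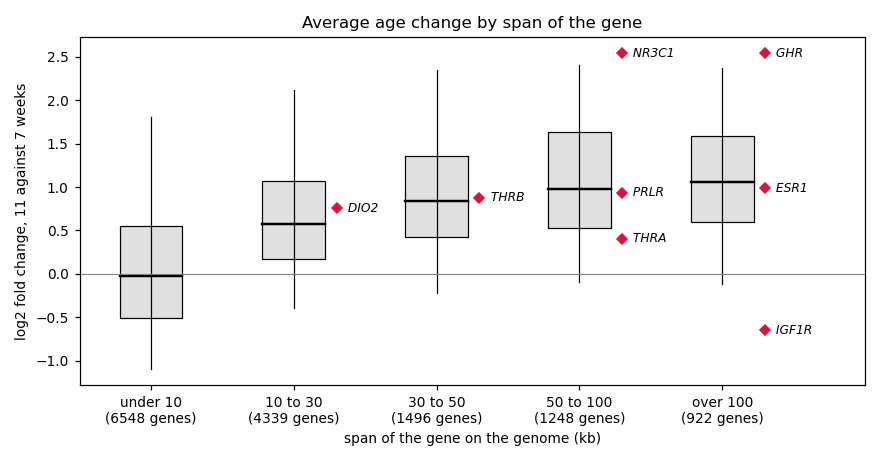
Log2 fold change from 7 to 11 weeks, averaged over both colours, of 14553 genes by genomic span in kilobases; boxes hold the middle 50% of genes with the median as a line, whiskers run from the 5th to the 95th percentile, and red diamonds are the 8 genes, set beside the box of their class. GHR and NR3C1 lay above the upper whisker of their class and IGF1R below the lower one, while the other 5 were within the whiskers.

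Some libraries stood high in many of these genes at once. Of the 11-week libraries, 1Y3 was the highest in 6 of the 8 genes, all but THRA and PRLR. Of the 7-week libraries, 7Y4 was the highest in 5, and 7W1 in the other 3, PRLR, IGF1R and ESR1. 7Y4 and 1Y3 also had the highest median FPKM over all genes of their ages, 0.384 and 0.682, and the most genes at an FPKM of 1 or more. THRA varied least between the libraries of an age, while PRLR varied most at 7 weeks and ESR1 at 11 weeks. The part of these library-wide features in the values of the 8 genes was not tested.

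**Figure D5:**
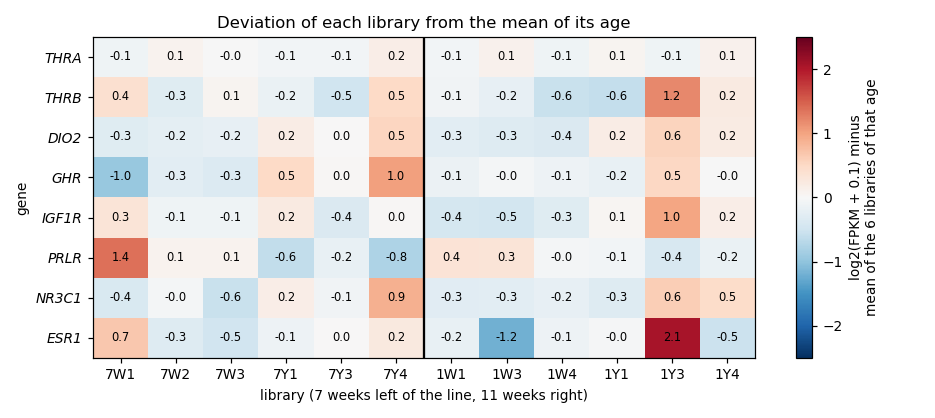
Deviation of log2(FPKM + 0.1) of each library from the mean of the 6 libraries of its age, for the 8 genes; red is above and blue below that mean, and the vertical line separates 7 from 11 weeks. 1Y3 deviated by 2.06 in ESR1 and 1.21 in THRB, and 7W1 by 1.38 in PRLR and -0.95 in GHR.

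The genes most like each of the 8 were named by the Pearson correlation of log2(FPKM + 0.1) over the 12 libraries, among 9130 or 9131 genes that have a symbol and average 1 FPKM or more. All these correlations share the 12 libraries and the difference between the ages. For GHR they were ZNF598 (0.998), SECISBP2 (0.998) and EXOC2 (0.997), and for NR3C1 FNBP1L (0.998), TBC1D4 (0.997) and ADNP2 (0.994), but 3298 and 3198 genes reached 0.9 with these 2, and GHR and NR3C1 reached 0.98 with each other. For DIO2 they were IL6ST (0.971), SYNJ2 (0.969) and FLT4 (0.968), with 595 genes at 0.9 or more. For THRA they were ERAL1 (0.975), RIT1 (0.972) and LRRC45 (0.964), with 903. THRB was most like ST6GALNAC3 (0.950), ADAMTS9 (0.948) and ARHGAP31 (0.945), with 21 genes at 0.9 or more, and ESR1 most like MOB1B (0.934), NUCKS1 (0.930) and RNF150 (0.928), with 7. IGF1R and PRLR had 1 such gene each, SETD1B (0.923) and RAB26 (0.923), ahead of SYNDIG1 (0.891) and HNRNPAB (0.887) for the former and OIT3 (0.898) and CLK1 (0.887) for the latter.

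Some markers of the cell types in the follicle moved with age or colour too. The age counts below stand beside 25% of all genes that rose and 2.96% that fell. Of 10 tested markers of pulp mesenchyme 2 rose with age and none fell, PDGFRB by 3.56 and PDGFRA by 2.88, while the summed FPKM of the list, in which collagens weigh most, overlapped between the ages (1834 to 2954 at 7 weeks and 1609 to 3652 at 11 weeks). Of 5 endothelial markers FLT1 (1.59) and CDH5 (1.13) rose, and their sum went from 9.70 to 17.2 at 7 weeks to 17.9 to 32.9 at 11 weeks. Of 9 keratinocyte markers TP63 (2.47) and DSP (1.11) rose and KRT14 fell by 1.05, and of 3 blood markers HBA1 and HBBA fell, by 1.73 and 1.41 on the log2 scale. Within a colour, 2 blood markers fell in white and 0 in yellow follicles, where 1Y4 had HBA1 at 94.1 and HBBA at 38.2. Over all genes 4.49% fell in white and 2.08% in yellow follicles. Of 5 immune rows 2 rose, PTPRC (1.52) and CSF1R (1.21), with MYH11 (1.32) as 1 of 6 muscle rows and MBP (1.13) as 1 of 4 Schwann cell rows, and none of 4 adipocyte and 9 cell cycle rows passed both thresholds. MYH11 stood at 10.8 FPKM in 1W1 and 6.58 in 1W4, and at no more than 2.56 in any other library. With quantile normalization no endothelial, immune, muscle or Schwann cell row rose, and KRT14 did not pass with quantile normalization or with equal totals. Over all 14553 genes quantile normalization gave 1543 up and 1283 down. Of 6 melanocyte rows 2 fell with age, PMEL (-1.20) and MLANA (-1.06), neither of which passed with quantile normalization. By colour 3 of the 6 passed, beside 0.206% of all genes. TYRP1, PMEL and MLANA were lower in yellow follicles on average, at -2.54, -2.07 and -1.60. The summed FPKM of that list was 694 to 1675 in white and 193 to 365 in yellow follicles at 7 weeks, and 314 to 614 and 119 to 178 at 11 weeks. The keratinocyte sum was 1554 to 2153 in every library, and the pulp mesenchyme sum was at least 1609. Markers of the epithelium and of the pulp that the follicle label implies were thus both represented. The part of cell makeup in the values of the 8 genes was not tested.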

How the data were processed

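RNA of feather follicles was measured in 12 libraries, 3 for each plumage colour and age. Reads were cleaned and mapped to GRCg6a by the authors, who deposited FPKM per gene. The submitters' processing notes name TopHat2, Bowtie2 version 2.2.3 and HTSeq version 0.6.0, and the program that wrote the FPKM is not given in the sources used here. The library kit is not described as strand-specific. No per-sample columns were left unused and no replicates were pooled.

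The values were put on the scale log2(FPKM + 0.1), and genes averaging 0.1 FPKM or more in the libraries fitted were tested in R version 4.3.3 by limma version 3.58.1 (eBayes with trend, Benjamini-Hochberg adjustment). On this scale a fold change understates the change of low genes. Colours were compared within each age and ages within each colour on 6 libraries. The average colour difference, the average age change and their interaction came from 1 model of all 12 libraries, in which each group had its own mean, and all genes entered every fit. The thresholds were an adjusted p of 0.05 and an absolute log2 fold change of 1. The precision of a single FPKM is unknown without counts and is given by the spread of libraries. The DEGseq test of the study needs counts and was not run. Each fit was first checked on values made with known changes.

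The 9 genes, the gene lists and alternatives were chosen with earlier results of these data known. The genes named are these 9, SPEF2, the 4 genes of each list with the largest change in each direction among those past both thresholds, and the 3 genes most correlated with each of the 8 found, except that some genes the rule names are not reported here. The 5 genes inside the THRA interval, and the list genes DIO1, ESR2, SOCS1, SOCS2, NR3C2, INSR, MC5R, NCOA1 and RXRA, were named after their values were seen. Other settings were tried 1 at a time. They were median-of-ratios scaling, quantile normalization, a pseudocount of 0.01 or 1, a filter at a mean FPKM of 1 or none, equal totals of genes below a mean FPKM of 500, eBayes without trend or robust, calls without a fold change threshold, a replicate block, the spread of all 12 libraries in each comparison, and each library left out in turn.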

Additional observations from a re-analysis of the deposited data

How the results depend on the processing

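The number of the 8 genes past both thresholds moved by over 1.5 times in the cases given next and in no other setting run. With no fold change threshold it went from 0 to 1 in the average colour difference, from 3 to 5 in each of the age changes in white and in yellow, and from 2 to 7 in the average age change. Over the fits without 1 library it did so only in the average age change, from 2 to 4 without 7W1. In the yellow age change the number was 2 to 3 over those fits, which is not over 1.5 times. Directions turned in some values, and not only in those near 0. With median-of-ratios scaling THRA had an average colour difference of -0.029 and age changes of -0.045 on average and -0.11 in white. With quantile normalization the age changes in white were -0.36 for THRB, -0.17 for PRLR and -0.14 for ESR1. As reported they were 0.54, 0.63 and 0.53. Over the fits without 1 library the colour difference ran from -0.21 to 0.083 for IGF1R at 7 weeks and from -0.0012 to 0.35 for GHR at 11 weeks, and the average colour difference from -0.013 to 0.062 for THRA and from -0.0053 to 0.45 for THRB. The cause was not tested.

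Counts over all genes moved more. In the average colour difference they were 30 as reported, 60 with no fold change threshold, 13 with a pseudocount of 1, 16 with a minimum mean FPKM of 1, 1 with the replicate block, 19 with the bird label as a random effect, and 2 to 88 without 1 library. At 7 weeks they ran from 0 to 18 around 4, and at 11 weeks from 0 to 2. With a pseudocount of 1 the age changes called 2607 genes in white, 1872 in yellow and 2219 on average, and with no fold change threshold 9475, 6200 and 10011. Quantile normalization called 1769 genes in yellow, 942 higher and 827 lower, 1757 higher and 1541 lower in white, and 1543 higher and 1283 lower on average. Median-of-ratios scaling called 2338 higher and 1876 lower in white and 1662 higher and 1175 lower in yellow, against 3843 and 649 and 2932 and 302 as reported. In the yellow age change, 2015 genes were called without 7Y3.

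Same-numbered libraries of the 2 ages correlated in their deviations from the group means at 0.0964 to 0.267 over 5 pairs, and 10 of 10 libraries with such a partner correlated best with their own number. The 5 pairs also had the same Dominant white genotype at both ages. The methods describe the same chickens plucked at several ages, while the results speak of as many individuals as libraries. No source settles the pairing, so the numbers were not taken as pairs. If birds repeat, libraries of the same bird are not independent, and the p-values of the average colour difference, that of DIO2 among them, could be too small. With the replicate block the genes called among the 8 were 0, 0 and 0 for colour, 3, 3 and 2 for age and 0 for the interaction, as without it. For colour the block joined different birds of the same number, so it tests no pairing there. Low FPKM limit PRLR and ESR1 most.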
